A study of Mus musculus with 22 samples.

Results

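Potassium channel subunits were chosen by symbol: rows of the gene count table named Kcn, then letters, then a number. A matching gene that is not reported here was left out of the set and its sums. The rule then gave 91 genes of 56748 rows, all protein coding in GENCODE M21 (GRCm38) and lying on 19 chromosomes. They fall into 20 subfamilies and 5 classes: 40 voltage-gated subunits, 14 inward rectifiers, 14 two-pore-domain subunits, 8 calcium- or sodium-activated subunits and 15 auxiliary subunits. Of the 91, 80 had enough counts to be tested and 11 did not.

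RNA came from the whole brains of 22 male C57BL/6J mice aged 17.5 months, each brain a separate library, in 6 groups. GWCBD30LPS (4 mice), GWCBD30 (4), GWVehLPS (4) and GWVeh (4) had been injected as young adults, from 10 weeks of age, daily for 10 days with permethrin, an insecticide (200 mg/kg), together with the acetylcholinesterase inhibitor pyridostigmine bromide (0.7 mg/kg), a model of Gulf War illness. CtrlVehLPS (3) and CtrlVeh (3) had vehicle instead of these chemicals. In old age GWCBD30LPS and GWCBD30 received cannabidiol (CBD) at 30 mg/kg, daily for 28 days and then every 2 days for 2 weeks, and the other 4 groups received its vehicle. GWCBD30LPS, GWVehLPS and CtrlVehLPS were given 1 injection of 0.33 mg/kg lipopolysaccharide (LPS), a bacterial cell-wall component that provokes systemic inflammation; the other groups had PBS. Brains were taken 24 h later. CBD was given to exposed mice only in the groups described, and the series' title asks about neuroimmune priming and its reversal.

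Potassium channels let potassium leave or enter cells along its gradient, and so set the resting potential, end the action potential and, in astrocytes, clear potassium released by firing neurons. Voltage-gated channels are tetramers of Kcna, Kcnb, Kcnc, Kcnd, Kcnh or Kcnq subunits, while Kcnf, Kcng, Kcns and Kcnv subunits are silent on their own and modify Kcnb channels. Inward rectifiers (Kcnj) and two-pore-domain channels (Kcnk) carry resting and background currents, Kcnma, Kcnn, Kcnt and Kcnu channels include those gated by intracellular calcium or sodium, and Kcnab, Kcnip, Kcne and Kcnmb proteins are partners that line no pore.

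The pore-forming members share the selectivity filter, a short loop that strips water from potassium. In the coding sequences of GENCODE M21, a run of 5 codons, read in frame, was searched for: threonine, any codon with T in the middle, glycine, any codon that starts with T, and glycine. It matched 63 of 76 pore-forming members and 0 of 15 auxiliary members. Matches were found in 33 of 40 voltage-gated subunits, 13 of 14 inward rectifiers, 12 of 14 two-pore-domain subunits and 5 of 8 calcium- or sodium-activated subunits. Of the two-pore-domain members, 11 held 2 matches, which is the feature the class is named for. Pore-forming members with no match were Kcnh1, Kcnh2, Kcnh3, Kcnh4, Kcnh6, Kcnh7, Kcnh8, Kcnj14, Kcnk1, Kcnk7, Kcnn1, Kcnn2 and Kcnn3; the codons searched are only 1 form of the filter. The windows below show the filter (capitals) with 15 coding bases on each side, 5′ to 3′ on the coding strand, in members of 4 classes, coordinates being GRCm38. The first, Kcnj16, is the astrocytic inward rectifier to which the LPS results return.
Kcnj16, chr11:111024889-111024933, plus strand: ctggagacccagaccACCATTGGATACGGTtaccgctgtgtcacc
Kcnj8, chr6:142566433-142566477, minus strand: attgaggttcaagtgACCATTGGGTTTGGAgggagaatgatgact
Kcna2, chr3:107105209-107105253, plus strand: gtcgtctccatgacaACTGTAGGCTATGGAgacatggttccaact
Kcnc1, chr7:46427958-46428002, plus strand: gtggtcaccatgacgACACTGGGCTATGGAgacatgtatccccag
Kcng4, chr8:119625895-119625939, minus strand: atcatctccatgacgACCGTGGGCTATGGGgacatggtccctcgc
Kcnk13, chr12:100061361-100061405, plus strand: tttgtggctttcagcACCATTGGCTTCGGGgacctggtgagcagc
Kcnma1, chr14:23528398-23528442, minus strand: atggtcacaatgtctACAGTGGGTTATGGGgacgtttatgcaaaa

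RefSeq (GRCm38.p6) promoter windows, running from 250 bases before to 50 after a start, were found for 66 of the members, with 91 windows in all. Only the 250 bases before each start were searched. On either strand, a GC box (GGGCGG) was present in 45.1% of these windows and 32.7% of all 32851 windows, and a TATA box (TATAAA) in 2.2% and 12.4%. A STAT motif (TTCNNNGAA) was found in 7.69% of member windows and 7.02% of all, an AP-1 motif (TGANTCA) in 4.4% and 6.75%, a glucocorticoid receptor motif of 13 letters in 1.1% and 0.387%, and an NF-kB motif of 10 letters in 0% and 0.356%. These are matches of letters in a fixed window. The 250 bases upstream of the first Kcnj16 start and of the Kcnj10 start are shown for the LPS values described below. Of 4 Kcnj16 windows only the first held a STAT motif, and the later ones held no motif, a TATA box and a GC box. Windows of Kcnab2, also described below, are not shown and held a GC box or no motif. Capitals mark a STAT motif in Kcnj16 and GC boxes, on the opposite strand, in Kcnj10.
Kcnj16, chr11:110967783-110968032, plus strand: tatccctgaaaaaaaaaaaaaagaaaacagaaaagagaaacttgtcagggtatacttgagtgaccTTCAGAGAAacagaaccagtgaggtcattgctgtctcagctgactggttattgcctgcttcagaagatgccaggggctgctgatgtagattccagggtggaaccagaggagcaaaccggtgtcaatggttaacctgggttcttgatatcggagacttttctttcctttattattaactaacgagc
Kcnj10, chr1:172340960-172341209, plus strand: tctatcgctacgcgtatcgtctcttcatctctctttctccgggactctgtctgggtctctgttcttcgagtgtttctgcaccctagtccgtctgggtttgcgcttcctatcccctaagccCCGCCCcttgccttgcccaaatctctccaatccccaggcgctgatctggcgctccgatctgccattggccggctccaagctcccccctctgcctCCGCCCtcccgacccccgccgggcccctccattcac

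Libraries held 17.2 to 31.2 M counts, and the 91 members took 0.62 to 0.678% of them. A floor of 3 counts in a library equals 0.0975 to 0.176 CPM (counts per M counts of the scaled library), and such limits cover counting error only. CtrlVehLPS replicate 1 stood apart. Its cerebellar neuron score (mean log2 CPM of 17 marker genes) was 2.69, against 5.68 to 6.5 in the other 21 libraries, and its summed CPM of 11 pancreatic enzyme genes was 327, against at most 4.71. Olfactory bulb neuron scores were raised in all 3 CtrlVehLPS libraries (2.99 to 3.87, against 1.64 to 1.74 in CtrlVeh) and in 3 exposed LPS libraries, GWCBD30LPS replicate 4 (2.86) and GWVehLPS replicates 2 (2.67) and 3 (3.14). The other exposed LPS libraries had 1.58 to 1.78, against 1.86 to 2.19 in GWCBD30 and 1.85 to 1.98 in GWVeh. Where a fit without CtrlVehLPS replicate 1 changed a call or moved a named value by over 1.5 times, its value is given beside the result. In whole brain, fewer cells of a type and less RNA per cell cannot be told apart.

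Levels per length (RPKM, counts per kilobase of exon scaled to library size, mean of 22 libraries) ran from Kcnab2 at 85.9 to Kcnj1, the renal outer medullary channel, at 0.00207. Kcnab2, the beta subunit that binds Kcna channels and helps carry them to axons, was the highest of all. Kcnj10, the main inward rectifier of astrocytes, had 54.9 RPKM, and Kcnc1, a fast delayed rectifier of rapidly firing neurons, had 40.9 RPKM. Also among the 10 highest were the two-pore-domain subunit Kcnk1 at 40.1, the strong inward rectifier Kcnj4 at 37.3, the Kcnd partner Kcnip2 at 36.7 and the G-protein-gated subunit Kcnj9 at 35.1 RPKM. Kcna2, a low-threshold channel of axons, had 34.4 RPKM.

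By subfamily, the 14 Kcnj genes summed to 192 RPKM, or 18.3% of the family's total, and the 4 Kcnc genes to 150 RPKM, or 14.3%. The 3 Kcnab genes gave 11.9%, the 14 Kcnk genes 9.21%, the 4 Kcnip genes 8.1%, the 8 Kcna genes 7.56%, the 8 Kcnh genes 5.97% and the 5 Kcnq genes 5.59%. Large families were therefore not always the most abundant: 3 Kcnab genes exceeded 14 Kcnk genes. Leading members of smaller subfamilies included Kcnd2 (27.4 RPKM), an A-type channel of dendrites, Kcnt1 (28.2), a sodium-activated channel, Kcnf1 (19.8) and Kcng4 (16.7), both silent modifiers, and Kcnma1 (16.1), the large-conductance calcium-activated channel. Kcnh3 led its subfamily at 19.1 RPKM and the silent Kcns2 led its own at 5.44. The 5 subfamilies with the lowest sums were led by the silent Kcnv1 (12.5), Kcnn2 (3.57), Kcnmb4 (2.40), Kcne2 (1.98) and the sperm channel Kcnu1 (0.662).

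**Figure D1:**
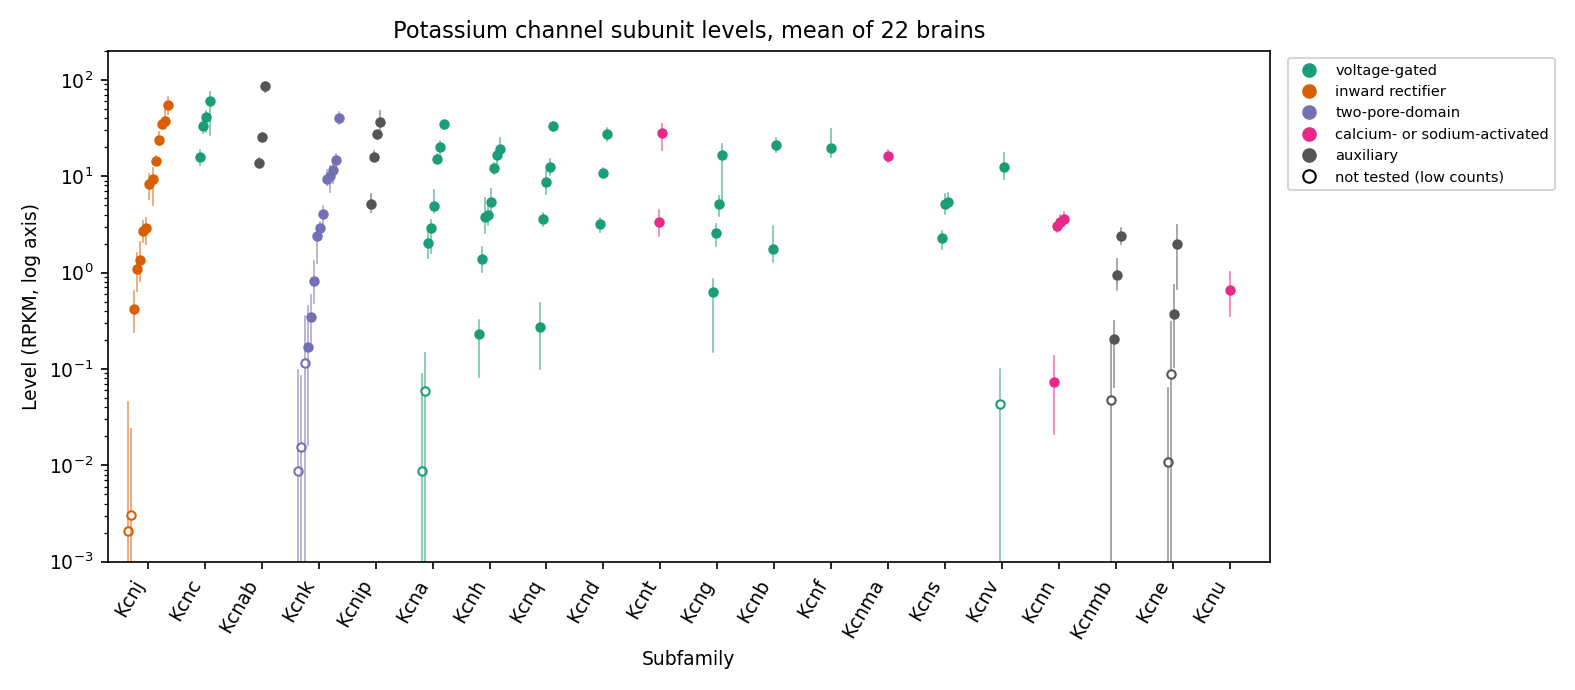
Level of each of the 91 subunits (RPKM, log axis) by subfamily, ordered by summed level; points are means of 22 libraries, vertical lines run from the lowest to the highest library, and lines that reach the bottom axis include 0. Open points are the 11 members too low to test; Kcnab2 (85.9) is the highest point and Kcnj1 (0.00207) the lowest.

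The 11 members that were not tested were Kcna7, Kcna10, Kcne1, Kcne3, Kcnj1, Kcnj15, Kcnk7, Kcnk16, Kcnk18, Kcnmb3 and Kcnv2. Each had between 3 (Kcnj1) and 109 (Kcnv2) counts over all 22 libraries together, and each had 0 counts in at least 1 library. They include genes known mainly from kidney (Kcnj1), retina (Kcnv2) and sensory ganglia (Kcnk18), and at this depth a level under the floor was not detectable.

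Across groups the family varied little. The range of the 6 group means had a median of 0.281 on the log2 scale over the 80 tested members and 0.294 over all 20026 genes tested, and it exceeded 1 for 2 members (2.5%), against 8.95% of all genes. Those 2, Kcnk15 (1.71) and Kcne4 (1.19), were named after their values were seen, and both lay near the bottom of the level range. The biological coefficient of variation had a median of 9.84% in the members and 11.4% in all genes. The members' median level was 31 CPM, however, and that of all genes 12.2 CPM.

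Summed by class, voltage-gated subunits stayed within a narrow band: 492 ± 19.1 RPKM in GWCBD30LPS, 485 ± 15.1 in GWCBD30, 486 ± 8.93 in GWVehLPS, 479 ± 9.97 in GWVeh, 485 ± 29.4 in CtrlVehLPS and 480 ± 7.3 in CtrlVeh (SD, n = 4, 4, 4, 4, 3 and 3). Inward rectifiers summed to 198 ± 5.8 RPKM in GWCBD30LPS and 185 ± 3.19 in GWCBD30, to 194 ± 6.79 in GWVehLPS and 189 ± 2.65 in GWVeh, and to 197 ± 3.6 in CtrlVehLPS and 186 ± 5.26 in CtrlVeh. The LPS group had the higher inward rectifier sum in each arm, without overlap of libraries in the CBD arm (190 to 203 against 182 to 188) and the control arm (193 to 200 against 181 to 192) and with overlap in the exposed vehicle arm (186 to 203 against 186 to 192). Auxiliary sums were 223 ± 2.22 RPKM in GWCBD30LPS and 209 ± 2.92 in GWCBD30, 218 ± 8.71 in GWVehLPS and 215 ± 3.54 in GWVeh, and 223 ± 11.3 in CtrlVehLPS and 207 ± 4.1 in CtrlVeh. Here too the LPS group had the higher mean in each arm. Auxiliary libraries did not overlap in the CBD arm (220 to 225 against 205 to 212) or the control arm (213 to 236 against 203 to 211). They overlapped in the exposed vehicle arm (208 to 226 against 211 to 220). Two-pore-domain sums were 98.2 ± 4.27 RPKM in GWCBD30LPS and 95.8 ± 4.28 in GWCBD30, 99.8 ± 0.759 in GWVehLPS and 93.8 ± 4.15 in GWVeh, and 94.2 ± 8.78 in CtrlVehLPS and 96.3 ± 3.82 in CtrlVeh. Their libraries did not overlap in the exposed vehicle arm (99 to 101 against 88.3 to 98.4) and overlapped in the other arms, with the lower mean under LPS in controls. Calcium- or sodium-activated sums had the lower mean under LPS in each arm, at 57.2 ± 1.41 RPKM in GWCBD30LPS and 62.6 ± 1.18 in GWCBD30, at 57.1 ± 3.64 in GWVehLPS and 57.6 ± 2.7 in GWVeh, and at 53.8 ± 2.9 in CtrlVehLPS and 61.2 ± 3.08 in CtrlVeh. Libraries overlapped in the exposed vehicle arm and not in the other arms. Kcnt1 (28.2 RPKM) and Kcnma1 (16.1) were the most abundant members of this class. In controls Kcnt1 had 18.7, 26.5 and 27.1 RPKM in CtrlVehLPS, the 18.7 from replicate 1, against 27, 28.6 and 34.5 in CtrlVeh. Among the 8 tested members, LPS fold changes were negative for 8 with CBD, 6 in exposed vehicle mice and 4 in controls. All these class sums are descriptions, weighted to abundant genes, and were not tested. In the CBD arm Kcnj10 alone had 54 to 66.9 RPKM in GWCBD30LPS, against 47.3 to 52.9 in GWCBD30. In controls Kcnj4 had 52.6, 34.3 and 39.2 RPKM in CtrlVehLPS, the 52.6 from replicate 1, against 40.7, 37.2 and 32.1 in CtrlVeh. Among 12 tested inward rectifiers, LPS fold changes were positive for 7 with CBD, 7 in exposed vehicle mice and 10 in controls.

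The LPS response was read first as the mean of the 3 arms, the comparison with the most libraries (11 LPS and 11 PBS). In it 4 of the 80 tested members passed an adjusted p of 0.05 in edgeR's quasi-likelihood test, while 3.52% of all genes tested did. Kcnj16, Kcnab2 and Kcnk6 rose and Kcnk9 fell; 1 is an inward rectifier, 1 an auxiliary subunit and 2 are two-pore-domain subunits. None of 37 voltage-gated and 8 calcium- or sodium-activated members passed. The 80 members had a median log2 fold change of 0.02, and all genes one of -0.01. At an unadjusted p under 0.05 there were 15 members (18.8%), against 17.8% of all genes, so the family's share was close to the background.

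Kcnj16 encodes an inward rectifier that joins Kcnj10 in a pH-sensitive channel of astrocytes and kidney tubules. It had 35.5, 33.7, 40.7 and 35.7 CPM in GWCBD30LPS, against 30.2, 27.5, 22.9 and 29.0 CPM in GWCBD30. In the exposed vehicle arm it had 41.4, 32.6, 34.7 and 34.0 CPM in GWVehLPS, against 33.7, 32.2, 26.7 and 29.3 CPM in GWVeh. In controls it had 34.6, 38.8 and 35.8 CPM in CtrlVehLPS, against 30.1, 33.2 and 27.3 CPM in CtrlVeh. Every LPS library exceeded every PBS library in the CBD and control arms, and the ranges met in the exposed vehicle arm. The log2 fold change averaged over the arms was 0.30 ± 0.056 (SE), adjusted p = 0.000996 by edgeR. By arm it was 0.41 ± 0.092 with CBD, 0.23 ± 0.092 in exposed vehicle mice and 0.27 ± 0.106 in controls, none of which passed alone (adjusted p = 0.0938, 0.32 and 0.291 by edgeR). The responses of the CBD and exposed vehicle arms did not differ detectably: the difference was 0.18 ± 0.130 (adjusted p = 0.925 by edgeR). Between the exposed vehicle and control arms no member's difference passed (smallest adjusted p of any member 0.299 by edgeR). Kcnj16 passed in each of the 22 fits that left out 1 library, with adjusted p from 0.000562 to 0.00455 by edgeR.

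Kcnj10, the partner of Kcnj16 and a level-leading member, did not pass. It had 319, 319, 362 and 292 CPM in GWCBD30LPS, against 286, 259, 259 and 256 CPM in GWCBD30, groups that did not overlap. It had 290, 346, 319 and 338 CPM in GWVehLPS, against 307, 333, 289 and 253 CPM in GWVeh, and 239, 323 and 321 CPM in CtrlVehLPS, against 270, 271 and 283 CPM in CtrlVeh. The lowest of all 22 libraries was CtrlVehLPS replicate 1, the library with low cerebellar markers. The averaged log2 fold change was 0.17 ± 0.052, adjusted p = 0.0664 by edgeR. Without CtrlVehLPS replicate 1 it passed, at 0.21 (adjusted p = 0.00194 by edgeR), and it also passed without GWCBD30LPS replicate 4, GWVehLPS replicate 1 or GWVeh replicate 2 (adjusted p = 0.0461, 0.0409 and 0.0322). It passed when scores of olfactory bulb and cerebellar neurons entered the fit (0.0178), with no filter on low counts (0.000497) and in DESeq2 (0.0306); over all alternatives its adjusted p ran up to 0.14. Its neighbour Kcnj9, 11.9 kb away on chromosome 1, had 142 to 160 CPM in GWCBD30LPS and 146 to 159 CPM in GWCBD30, which overlap; the difference between the neighbours was not tested.

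Astrocyte markers also rose under LPS. Of 12 astrocyte marker genes, 5 rose and 0 fell in the averaged LPS comparison, and their summed CPM ran from 7360 to 7810 in GWCBD30LPS and from 6380 to 6760 in GWCBD30, from 7480 to 8400 in GWVehLPS and from 6510 to 7400 in GWVeh, and from 7540 to 7740 in CtrlVehLPS and from 6760 to 7080 in CtrlVeh. Their part in the Kcnj16 and Kcnj10 values was not tested. Among genes of potassium and chloride transport, Atp1b2, a sodium pump beta subunit of astrocytes named after its values were seen, had a log2 fold change of 0.24 ± 0.065 and did not pass (adjusted p = 0.0503 by edgeR). Of 18 tested channel partners outside the symbol rule, such as Dpp6 and Cntnap2, 0 passed by edgeR and 3 had an unadjusted p under 0.05. The sulfonylurea receptor Abcc9, which pairs with Kcnj8 in vessel walls, had the smallest of these p values (0.35 ± 0.103, adjusted p = 0.0539 by edgeR).

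Kcnab2, the most abundant member, had 498, 484, 515 and 512 CPM in GWCBD30LPS, against 437, 454, 456 and 418 CPM in GWCBD30. In controls it had 523, 478 and 520 CPM in CtrlVehLPS, against 436, 423 and 467 CPM in CtrlVeh. These groups did not overlap, whereas the exposed vehicle groups did, with 524, 510, 465 and 474 CPM in GWVehLPS and 521, 487, 477 and 466 CPM in GWVeh. The averaged log2 fold change was 0.13 ± 0.034 (adjusted p = 0.0183 by edgeR), and by arm it was 0.19 ± 0.055 with CBD, 0.02 ± 0.055 in exposed vehicle mice and 0.20 ± 0.064 in controls. GWVeh (488 ± 23.6 CPM, SD, n = 4) lay above GWCBD30 (441 ± 17.5, n = 4) and CtrlVeh (442 ± 22.3, n = 3), but the tests of the differences between arms did not pass (exposure by LPS, -0.18 ± 0.084, adjusted p = 0.573; CBD by LPS, 0.17 ± 0.078, adjusted p = 0.848, both by edgeR). Of its exon bases, 2.24% are shared with a same-strand gene, Gm16334. The call was lost without CtrlVeh replicate 2 (adjusted p = 0.0605 by edgeR).

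Kcnk6 is a weakly conducting two-pore-domain channel that in mouse macrophages lets potassium out during inflammasome activation. It was low, at 3.09, 3.81, 3.09 and 3.95 CPM in GWCBD30LPS, against 3.12, 2.64, 3.03 and 2.02 CPM in GWCBD30. It had 5.52, 3.86, 3.82 and 3.47 CPM in GWVehLPS, against 2.94, 2.36, 2.98 and 2.97 CPM in GWVeh, and 4.62, 4.11 and 3.28 CPM in CtrlVehLPS, against 3.64, 2.63 and 3.22 CPM in CtrlVeh. Only the exposed vehicle groups did not overlap. The averaged log2 fold change was 0.43 ± 0.116 (adjusted p = 0.0314 by edgeR), and 8 of the 22 fits without 1 library lost the call, among them that without CtrlVehLPS replicate 1 (adjusted p = 0.0637). Of 15 microglial markers, 12 also rose and 0 fell. Their summed CPM was 381 to 440 in GWCBD30LPS and 320 to 375 in GWCBD30. It was 485 to 615 in GWVehLPS and 309 to 358 in GWVeh, and 507 to 535 in CtrlVehLPS and 316 to 337 in CtrlVeh. These sums of 15 genes did not overlap in any arm, but their overlap cannot be compared with that of Kcnk6, a gene of low counts. The markers' part in the Kcnk6 value was not tested. The other two-pore-domain subunit known from microglia, Kcnk13, named after its values were seen, had 0.16 ± 0.067 and did not pass (adjusted p = 0.191 by edgeR).

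Kcnk9, an acid-sensitive background channel abundant in cerebellar granule neurons, was the only member called lower. It had 182, 170, 176 and 174 CPM in GWCBD30LPS, against 209, 195, 191 and 195 CPM in GWCBD30, and 181, 145, 190 and 168 CPM in GWVehLPS, against 168, 184, 187 and 189 CPM in GWVeh. In controls it had 151, 183 and 184 CPM in CtrlVehLPS, against 185, 200 and 199 CPM in CtrlVeh. The CBD and control arms did not overlap, and the lowest CtrlVehLPS value was again replicate 1. The averaged log2 fold change was -0.14 ± 0.042 (adjusted p = 0.0466 by edgeR). The call was lost in 16 of 22 fits without 1 library, and without CtrlVehLPS replicate 1 the value was -0.11 (adjusted p = 0.0899). With bulb and cerebellar neuron scores in the fit, Kcnab2, Kcnk6 and Kcnk9 did not pass (adjusted p = 0.131, 0.221 and 0.278 by edgeR), and Kcnj16 did (0.00299).

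**Figure D2:**
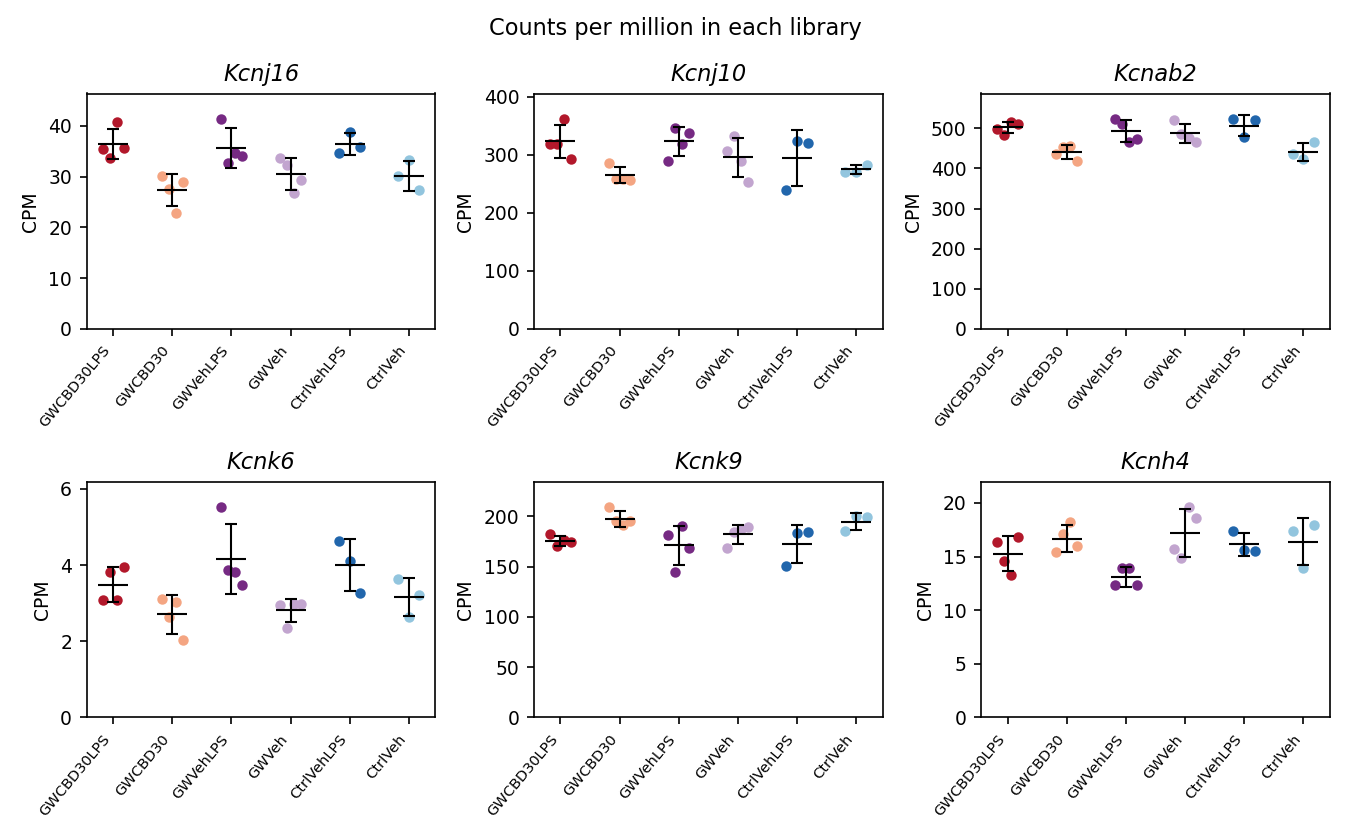
CPM of 6 subunits in each library (points), with group mean and SD (bars), LPS groups left of their PBS groups; axes start at 0. Kcnj16 lies between 32.6 and 41.4 CPM in the 11 LPS libraries and between 22.9 and 33.7 CPM in the 11 PBS libraries, while Kcnh4 is lowest in GWVehLPS (12.3 to 13.9 CPM).

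Within single arms no member passed. In exposed CBD mice 0 of 80 passed in edgeR, where 0.00499% of all genes did, and 6 had an unadjusted p under 0.05 (7.5%, against 8.22% of all genes); DESeq2 called 1, Kcnj16. Libraries did not overlap for 3 higher and 1 lower member, against 3.39% and 2.85% of all genes. In exposed vehicle mice 0 of 80 passed against 0.939% of all genes, with 7 at an unadjusted p under 0.05 (8.75%, against 10.4% of all genes), and DESeq2 called 1, Kcnh4. In controls 0 of 80 passed against 0.494% of all genes, with 19 at an unadjusted p under 0.05 (23.8%, against 12.2% of all genes), and DESeq2 called 1, Kcnab2. Without CtrlVehLPS replicate 1 the 19 became 11 (13.8%, against 11.7% of all genes), and without CtrlVeh replicate 2 or 3 it became 12 (14.8%, against 8.64% and 10.3%). In exposed vehicle mice the 7 became 11 without GWVeh replicate 1 or 2 and 4 without GWVeh replicate 3. Fold changes were positive in all 3 arms for 13 members and negative in all 3 for 10, against 17.4% and 19.3% of all genes.

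Kcnh4, a voltage-gated channel of the forebrain, had the smallest p in exposed vehicle mice. It had 12.3, 13.9, 13.9 and 12.3 CPM in GWVehLPS, against 15.7, 14.9, 19.6 and 18.6 CPM in GWVeh, and the groups did not overlap. The log2 fold change was -0.39 ± 0.105 and just missed the threshold (adjusted p = 0.0631 by edgeR). In the other arms Kcnh4 had 13.3 to 16.8 CPM in GWCBD30LPS and 15.4 to 18.2 in GWCBD30, and 15.5 to 17.4 CPM in CtrlVehLPS and 13.9 to 17.9 in CtrlVeh, all overlapping. In the same arm Kcnk1 had 91.4, 102, 92 and 98.6 CPM in GWVehLPS, against 91.3, 83.9, 77.2 and 86.4 CPM in GWVeh, a log2 fold change of 0.18 ± 0.067 (adjusted p = 0.251 by edgeR). Members whose libraries did not overlap numbered 3 higher and 1 lower there, against 3.5% and 2.37% of all genes.

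In controls the smallest p values belonged to Kcnh3, Kcnab2 and Kcnip2. Kcnh3, a forebrain channel related to Kcnh4, had 143, 115 and 115 CPM in CtrlVehLPS, against 109, 93.8 and 103 CPM in CtrlVeh. Its log2 fold change of 0.29 ± 0.088 (adjusted p = 0.137 by edgeR) dropped to 0.18 (adjusted p = 0.438) without CtrlVehLPS replicate 1. Kcnip2 had 165, 132 and 131 CPM in CtrlVehLPS, against 125, 113 and 120 CPM in CtrlVeh, and its value of 0.26 ± 0.089 (adjusted p = 0.189) likewise became 0.14 (adjusted p = 0.545) without that library. In this arm 12 members were higher in every CtrlVehLPS library and 5 were lower in every one, against 9.2% and 8.13% of all genes.

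**Figure D3:**
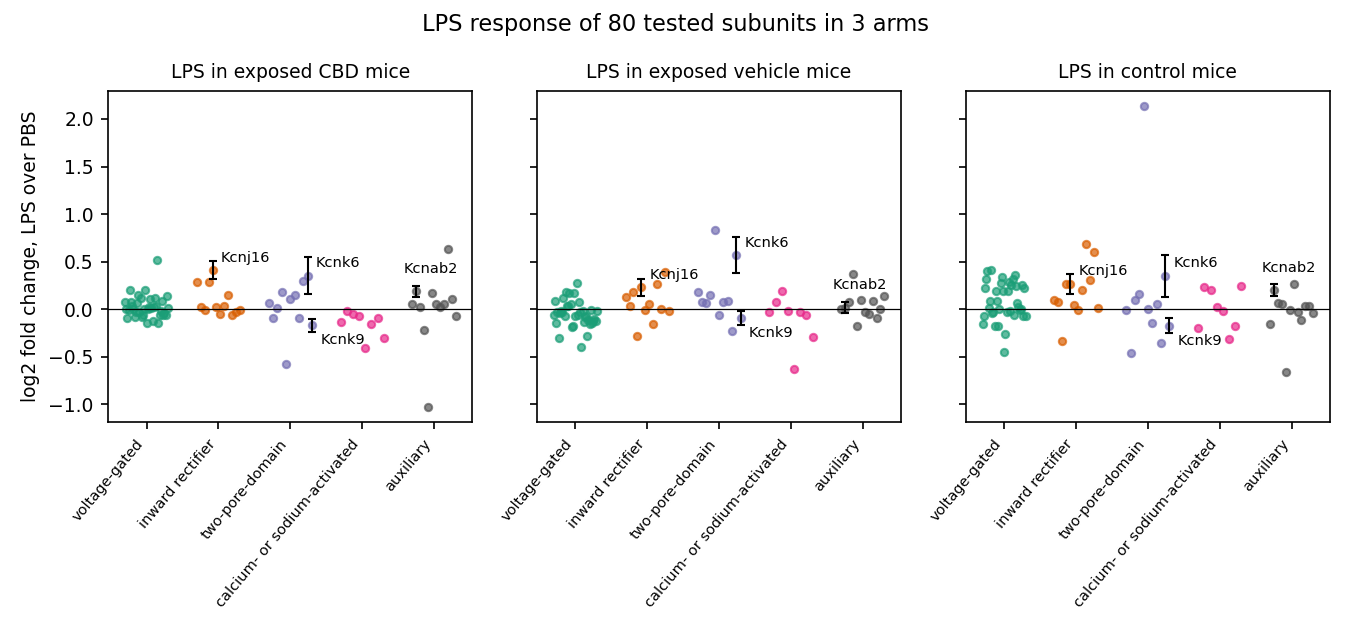
Log2 fold change (LPS over PBS) of the 80 tested subunits by class in the exposed CBD, exposed vehicle and control arms; points are genes, and bars are SE for the 4 members called over the 3 arms together. Kcnj16 is at 0.41, 0.23 and 0.27, and the highest point, Kcnk15 at 2.14 in controls, has under 1 CPM in every library.

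Channel values also stood apart in the library with low cerebellar markers. Of 80 members, 20 were higher in CtrlVehLPS replicate 1 than in any other library and 12 were lower, against 8.45% and 9.56% of all genes. Kcng4 had 18.2 CPM there, against 51.4 to 83.1 in the other 21 libraries. Also lowest there were Kcna1, Kcna2, Kcnc1, Kcnd2, Kcnj10, Kcnj12, Kcnk3, Kcnk10, Kcnk12 and Kcnt1. Kcnb2, at 45.8 CPM against 19.4 to 33.4, and Kcnf1, at 148 CPM against 75.7 to 107, were among the highest, with Kcnh3, Kcnip2, Kcnj4, Kcnq5 and Kcnv1.

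**Figure D4:**
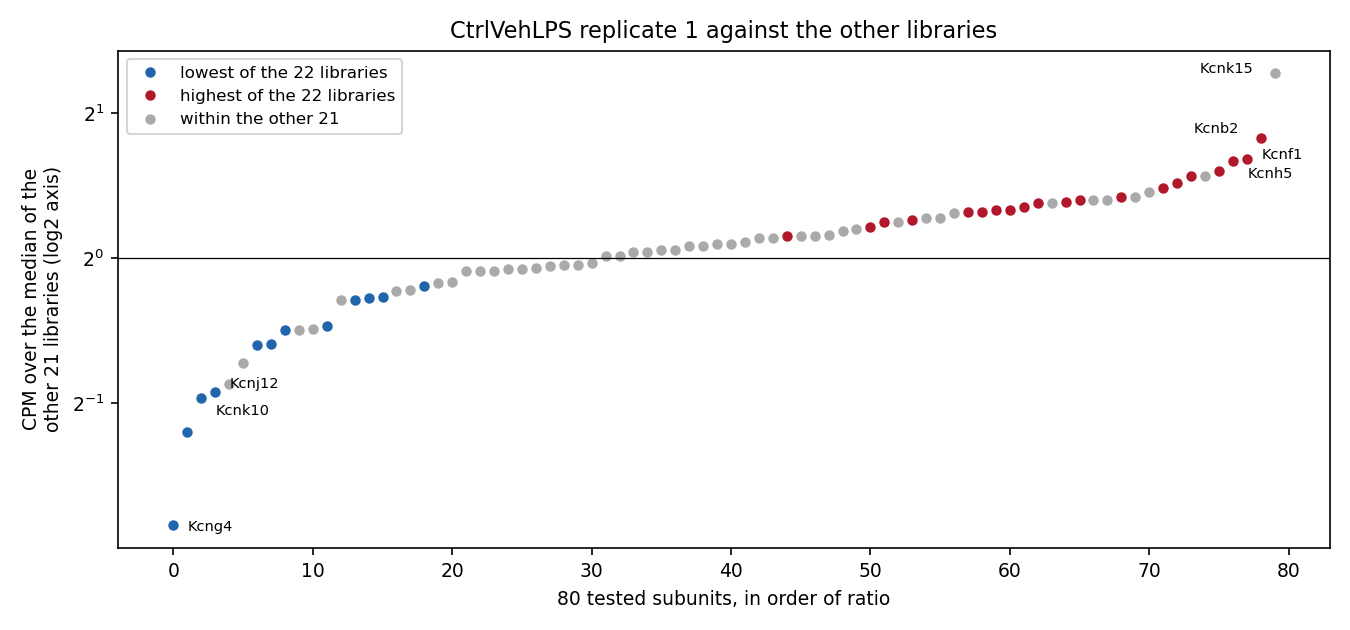
CPM in CtrlVehLPS replicate 1 divided by the median of the other 21 libraries (log2 axis) for the 80 tested subunits in order. Points in blue (12) are the lowest of all 22 libraries and points in red (20) the highest; Kcng4 (0.279) is the lowest point.

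The exposure was compared next. Without LPS, in GWVeh against CtrlVeh, 0 of 80 members and 0% of all genes passed in edgeR, 4 members had an unadjusted p under 0.05 (5%, against 8.8% of all genes) and DESeq2 called 0. The 4 became 8 without GWVeh replicate 4, 2 without GWVeh replicate 2 and 1 without GWVeh replicate 1 or CtrlVeh replicate 2. Every library was higher in GWVeh for 2 members and lower for 5, against 4.8% and 4.59% of all genes. The smallest p was that of Kcng1, a silent modifier of Kcnb channels, with 22.3, 22.1, 27.5 and 28.3 CPM in GWVeh, against 20.4, 20.5 and 19.9 CPM in CtrlVeh. The groups did not overlap, and the log2 fold change was 0.31 ± 0.109 (adjusted p = 0.453 by edgeR). Kcng3, another silent modifier, had 1.61, 0.502, 2.28 and 2.32 CPM in GWVeh, against 2.73, 2.86 and 2.79 CPM in CtrlVeh (-0.72 ± 0.320, adjusted p = 0.53 by edgeR), and without GWVeh replicate 2, its lowest library, the value was -0.43 (adjusted p = 0.887). Kcnab2 had 0.14 ± 0.060 (adjusted p = 0.515).

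Under LPS, in GWVehLPS against CtrlVehLPS, 0 of 80 members passed in edgeR and 0.00499% of all genes did; DESeq2 called 0. At an unadjusted p under 0.05 there were 16 members, 13 of them lower, or 20% against 7.73% of all genes. Single libraries moved this count both ways: without CtrlVehLPS replicate 1 there were 4, or 5% against 4.42% of all genes, without GWVehLPS replicate 3 there were 10 (12.5%, against 7.08%), and without CtrlVehLPS replicate 3 there were 26 (32.1%, against 11%). Every library was higher in GWVehLPS for 2 members and lower for 3, against 2.84% and 2.57% of all genes. Kcnb2, a delayed rectifier, had 25, 22.7, 26.4 and 19.4 CPM in GWVehLPS, against 45.8, 31.3 and 26.7 CPM in CtrlVehLPS, and its log2 fold change of -0.57 ± 0.167 (adjusted p = 0.41 by edgeR) became -0.31 without that library. Kcnf1 had 86.1, 91.5, 75.7 and 78.1 CPM in GWVehLPS, against 148, 97.6 and 93.3 CPM in CtrlVehLPS, and its value of -0.45 ± 0.139 (adjusted p = 0.461) became -0.20. Both highest CtrlVehLPS values came from that same library. Kcnd2 had 140, 155, 156 and 149 CPM in GWVehLPS, against 120, 144 and 120 CPM in CtrlVehLPS, with 0.23 ± 0.068 (adjusted p = 0.41) and 0.18 without it; here replicate 3 was as low as replicate 1.

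The LPS response of exposed vehicle mice was set against that of controls in 1 test of the difference. In edgeR 0 of 80 members and 0% of all genes passed, 14 members had an unadjusted p under 0.05 (17.5%, against 8.43% of all genes), and DESeq2 called 1, Kcnd2. Kcnd2 had 137, 136, 123 and 138 CPM in GWVeh and 145, 145 and 143 CPM in CtrlVeh. With the LPS values above, its difference was 0.34 ± 0.095 (adjusted p = 0.299 by edgeR), the LPS value being 0.17 in exposed mice and -0.17 in controls. Kcng1 had a difference of -0.52 ± 0.154 (adjusted p = 0.334) and Kcna5, a Kcna channel also found in vessels and microglia, one of -0.71 ± 0.239 (adjusted p = 0.413). Without CtrlVehLPS replicate 1 these differences were 0.29 for Kcnd2, -0.51 for Kcng1 and -0.51 for Kcna5 (adjusted p = 0.728, 0.728 and 0.75 by edgeR), and the count of 14 became 7 (8.75%, against 6.57% of all genes). It became 9 without GWVehLPS replicate 3 or GWVeh replicate 3.

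CBD was compared with vehicle in exposed mice. Without LPS, in GWCBD30 against GWVeh, 0 of 80 members and 0% of all genes passed in edgeR, 5 members had an unadjusted p under 0.05 (6.25%, against 6.43% of all genes) and DESeq2 called 0. The 5 became 11 without GWVeh replicate 3, 10 without GWVeh replicate 4, 2 without GWCBD30 replicate 4 or GWVeh replicate 2, and 1 without GWVeh replicate 1. Libraries of GWCBD30 lay above those of GWVeh for 4 members and below for 1, against 1.84% and 1.7% of all genes. Kcnab2, whose values are given above, was lower in every GWCBD30 library than in any GWVeh library (-0.14 ± 0.055, adjusted p = 0.752 by edgeR). Kcnma1 had 279, 290, 300 and 320 CPM in GWCBD30, against 238, 251, 289 and 287 CPM in GWVeh (0.16 ± 0.065, adjusted p = 0.752). The smooth-muscle partner of Kcnma1, Kcnmb1, had 0.843, 0.693, 0.275 and 0.354 CPM in GWCBD30, against 1.24, 1.10, 1.20 and 0.700 CPM in GWVeh (-0.95 ± 0.389, adjusted p = 0.752), near 1 CPM at most.

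Under LPS, in GWCBD30LPS against GWVehLPS, 0 of 80 members passed in edgeR and 0.24% of all genes did, 7 members had an unadjusted p under 0.05 (8.75%, against 7.1% of all genes) and DESeq2 called 0. The 7 became 11 without GWVehLPS replicate 1, 4 without GWCBD30LPS replicate 1 or GWVehLPS replicate 4, and 3 without GWCBD30LPS replicate 4. Libraries of GWCBD30LPS lay above those of GWVehLPS for 1 member and below for 2, against 1.78% and 2.5% of all genes. Kcna5 had 6.41, 5.47, 7.11 and 7.11 CPM in GWCBD30LPS, against 4.41, 5.79, 4.09 and 4.91 CPM in GWVehLPS (0.44 ± 0.155, adjusted p = 0.395 by edgeR). Kcnq3, a subunit of the M-current, had 180, 197, 188 and 190 CPM in GWCBD30LPS, against 174, 161, 155 and 159 CPM in GWVehLPS (0.22 ± 0.081, adjusted p = 0.472). Kcnn1, a small-conductance calcium-activated channel, had 14.7, 12.9, 15.5 and 13.6 CPM in GWCBD30LPS, against 16.2, 17.2, 16.8 and 16.7 CPM in GWVehLPS (-0.24 ± 0.102, adjusted p = 0.62). Kcnq3 and Kcnn1 did not overlap between the groups and Kcna5 did. In the test of the difference between the LPS responses of CBD and vehicle mice, 0 of 80 members passed against 0.0449% of all genes, 3 had an unadjusted p under 0.05 (3.75%, against 5.69% of all genes) and DESeq2 called 0. The 3 became 1 without GWCBD30 replicate 4, GWVehLPS replicate 1 or 4 or GWVeh replicate 3, and 0 without GWVehLPS replicate 3. Kcna5 (0.51 ± 0.219), Kcnab2 (0.17 ± 0.078) and Kcnn2 (-0.24 ± 0.112) had the smallest p there (adjusted p = 0.838, 0.848 and 0.855 by edgeR).

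The LPS comparisons of the exposed vehicle arm, the exposure comparisons and the CBD comparisons share the GWVeh or GWVehLPS libraries, so their values for a member are not independent. Strand handling in counting is not given in the sources used here, and 27 members share exon bases with another annotated gene. Members with over 10% of exon bases shared included Kcna6 (39.6%), Kcnmb4 (31.5%), Kcnj3 (31.1%), Kcnk4 (13.1%) and Kcnk2 (12.2%), whose levels are the less certain for it. Kcnj16, Kcnj10, Kcnk6 and Kcnk9 share 0%.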

How the data were processed

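Per the labels' protocols, only RNA of integrity 8.5 or above was used, for stranded poly(A) libraries with paired reads of 150 bp. The build was GRCm38/mm10, per the submitters' processing notes. The authors deposited whole-number counts of reads per gene, without normalization; no aligner, counting program or strand setting is given in the sources used here. No molecular identifiers are mentioned, so counts are reads. Library totals were 17.2 to 31.2 M. Members, gene lists, tests and alternatives were chosen with earlier results of these data known. Libraries were grouped by their labels, which give separate mice, and p-values measure the spread between them.

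Counts were fitted with edgeR 4.0.16 (R 4.3.3): filterByExpr kept 20026 genes, TMM scaled the libraries, and a robust quasi-likelihood model of 6 group means (22 libraries, 16 residual degrees of freedom) gave 10 contrasts, 2 of them differences between LPS responses. All tests were two-sided, adjusted by Benjamini-Hochberg over all genes tested, with a threshold of 0.05. CPM used TMM-scaled totals, and RPKM divided them by GENCODE M21 merged exon length. Alternatives were RLE scaling, no filter, DESeq2 1.42.0, a replicate block, olfactory bulb and cerebellar scores as covariates, and leaving out each library in turn; averaging the 2 exposed arms alone and leaving out libraries with raised bulb scores were added after seeing the data. Named genes were those called in a contrast, otherwise the 3 with the smallest p, plus the highest member by RPKM of each subfamily and the 10 highest of all; other members named were chosen after their values were seen. Some genes that match these rules are not reported here.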

Additional observations from a re-analysis of the deposited data

Results flagged for a closer look

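In each of the 4 groups of 4 libraries, 31 named members were checked for a library far from the other 3 (by Dixon's criterion). Chance gives such a library in about 1 of 20 checks, so several would arise by chance over this many checks. In all, 9 values stood out. Above their groups were Kcnj10 in GWCBD30 replicate 1 (286 CPM, the next 259), Kcnf1 in GWCBD30LPS replicate 4 (99.8, the next 90.5), Kcnu1 in GWCBD30LPS replicate 3 (3.02, the next 2.00) and Kcns2 in both GWVehLPS replicate 1 (31.2, the next 27.8) and GWCBD30 replicate 4 (36.9, the next 30.5). Below their groups were Kcnip2 in GWVehLPS replicate 3 (108 CPM, the next 132), Kcnk6 in GWVeh replicate 2 (2.36, the next 2.94), Kcnd2 in GWVeh replicate 3 (123, the next 136) and Kcnmb4 in GWCBD30 replicate 1 (6.57, the next 9.02).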

How the results depend on the processing

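Of the counts of members called, 139 alternative values stayed within 1.5 times the main count, and 18 moved. Of the values of named members, 475 kept their side of the threshold, 35 lost the call (Kcnab2, Kcnk6 and Kcnk9 in the averaged LPS comparison), 21 gained one (9 of them Kcnj10 in that comparison) and 0 changed sign. The averaged LPS count of 4 was 7 with no filter on low counts, 2 with bulb and cerebellar scores as covariates, 1 with only the 2 exposed arms averaged, 2 with 3 exposed libraries of raised bulb scores left out, and 1 to 5 with single libraries left out (1, Kcnj16, without CtrlVeh replicate 2). The count of 0 in controls was 3 with no filter and 1 in DESeq2. In exposed vehicle mice it was 1 with no filter, with the covariates and in DESeq2, and 0 to 1 with single libraries left out (Kcnh4 without GWVeh replicate 1 or 2). In exposed CBD mice it was 2 with no filter and 1 in DESeq2, for exposure under LPS 2 with no filter, and for exposure by LPS 1 in DESeq2. The cause was not tested. Same-numbered libraries did not deviate together (correlations of -0.06 to 0.13), so no pairing by number was detected, though a weak one could be missed. With a replicate block the averaged LPS count was 5, adding Kcnj10, and all other counts stayed 0. Members under about 1 CPM are limited by depth.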
